A study of Arabidopsis thaliana with 13 samples.

Results

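The response of dark-grown wild-type Arabidopsis thaliana to ACC was read from 3 libraries of ACC-treated Col-0 seedlings and 3 libraries of mock-treated Col-0 seedlings, which were taken by their labels and make up 6 of the 13 libraries of the series. Seedlings had 6 h of white light, then stood in darkness at 22 °C, and were 4 days old when they were moved to liquid medium. The treated group spent 4 h with 10 µM ACC, and the mock group spent the same time with 1‰ DMSO, the solvent; the labels do not say whether the ACC medium held DMSO as well. Both groups were Col-0 with no mutant allele or transgene named. Another 3 Col-0 libraries, from seedlings given 30 µM PFT-alpha (pifithrin-alpha, a small molecule) for 4 h, entered the filter on low values, the estimate of the spread between replicates and a closing comparison with ACC. Polyadenylated RNA came from whole seedlings, so each value is an average over all organs, and fewer cells of a type cannot be told apart from less RNA per cell.

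ACC is the direct precursor of ethylene, a gaseous plant hormone, and ACC oxidases turn it into the gas. Ethylene is sensed by a small family of receptors that, without the hormone, keep the kinase CTR1 active; when the hormone binds, EIN2 is released and the transcription factors EIN3 and EIL1 accumulate and switch on target genes. In dark-grown seedlings the known outcome is the triple response: a short, thick hypocotyl, a short root and a tightened apical hook, the bend that shields the shoot tip as it pushes through soil.

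The deposited values were TPM, a transcript abundance scaled by transcript length and library total. The 6 libraries held an estimated 20.6 to 24.8 M fragments, and 19059 to 19801 genes reached 1 TPM in each. Replicate 3 stood apart in both groups. The antenna and Rubisco small subunit genes, which serve photosynthesis, summed to 68912.9 TPM in ACC replicate 3 and 66254.0 TPM in mock replicate 3, against 29691.4 to 40784.9 TPM in the other 4 libraries. The replicate number was a paired factor in the fit, and each fold change below is the mean of the 3 differences between same-numbered libraries on the log2(TPM + 1) scale. Tissue markers were present in both groups: the summed level of 3 phloem companion cell genes was 85.8 to 170.2 TPM in ACC libraries and 92.7 to 230.6 TPM in mock libraries, that of 6 xylem genes was 38.5 to 107.2 TPM with ACC and 41.7 to 110.9 TPM in mock, and that of 6 root tip genes was 49.5 to 64.9 TPM with ACC and 58.4 to 63.9 TPM in mock. None of these 14 tested marker genes was called by limma, nor did any pass an unadjusted p of 0.05.

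Of 20753 genes tested, 1222 (5.89%) differed between ACC and mock at an adjusted p under 0.05 in limma. In ACC-treated seedlings 355 genes (1.71%) were higher and 867 (4.18%) were lower. A change of at least 2-fold was reached by 135 genes that rose (0.651%) and 273 that fell (1.32%), and a change of at least 4-fold by 15 that rose and 18 that fell. The genes that rose together made up 38746.5, 37851.6 and 34849.8 TPM in ACC libraries, against 21305.2, 18790.8 and 19305.3 TPM in mock libraries. The genes that fell together made up 28557.6, 31802.9 and 26857.0 TPM in ACC libraries, against 58732.3, 64570.6 and 47005.2 TPM in mock libraries.

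**Figure D1:**
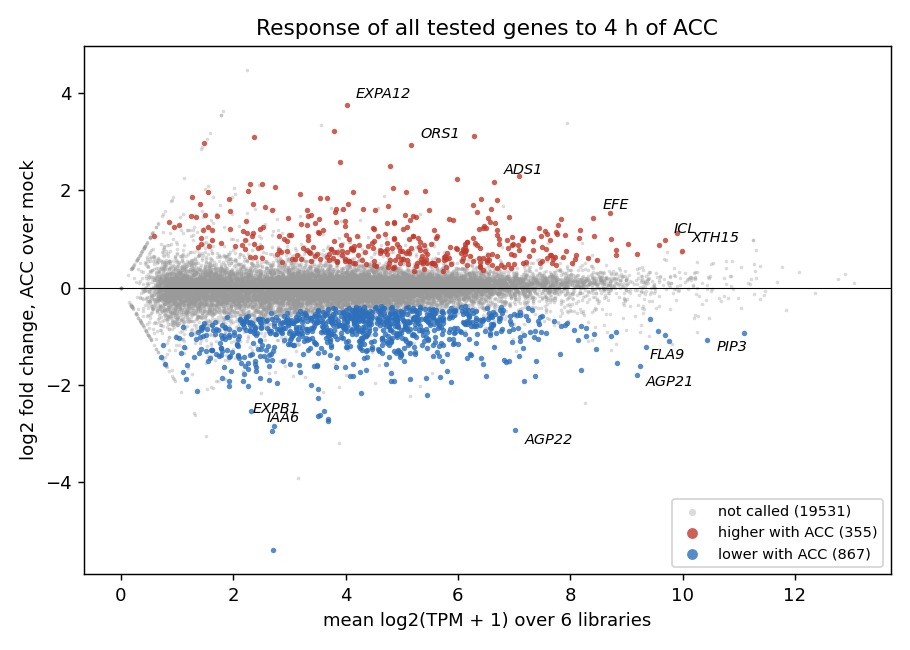
Change of each of the 20753 tested genes (vertical axis, log2 fold change of ACC over mock) against its level (horizontal axis, mean log2(TPM + 1) over the 6 libraries); red points are the 355 genes called higher, blue points the 867 called lower and grey points the rest. More genes fell than rose, and called genes span the range of levels.

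All 1222 called genes moved the same way in all 3 same-numbered pairs. The calls rest on these same pair differences, which favours genes whose pairs agree. This agreement and the medians by pair are therefore no independent support for the calls. The genes that rose had a median difference of 0.83, 0.97 and 0.80 on the log2 scale in pairs 1, 2 and 3, and those that fell had -0.85, -0.85 and -0.76. Every ACC library lay above every mock library for 944 genes (4.55% of those tested) and below for 1625 (7.83%), so separation of the groups alone is common and is read here only beside a call. Across all tested genes, which are not independent replicates, the differences of pairs 1 and 2 correlated at r = 0.35, those of pairs 2 and 3 at 0.30 and those of pairs 1 and 3 at 0.12. The calls lean on pairing: without the replicate block 193 genes were called, all of them among the 1222. They lean on replicate 2 as well, since 100 genes were called without that replicate in the 3 wild-type groups, 425 without ACC replicate 2 and 399 without mock replicate 2, while 1053 were called without replicate 3.

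The genes of largest rise were led by EXPA12, an expansin (a protein that loosens cell walls), with 50.9, 71.4 and 55.2 TPM in ACC libraries, against 3.69, 3.2 and 3.4 TPM in mock libraries. Next was AT1G72290 (TAIR10.1, chromosome 1:27215787-27216857), which encodes a Kunitz-type protease inhibitor and had 35.4, 30.6 and 65.7 TPM with ACC, against 2.34, 2.19 and 7.99 TPM in mock. Its groups did not overlap, and the log2 fold change was 3.22 (SE 0.18, adjusted p = 0.000286). AT1G50110, a branched-chain amino acid aminotransferase, had 34.3, 32.7 and 39.7 TPM with ACC, against 4.64, 3.56 and 7.7 TPM in mock. AT5G02540, of the short-chain dehydrogenase family, had 69.4, 73.8 and 54 TPM with ACC, against 11.2, 10.2 and 10.6 TPM in mock. Both rose, with log2 fold changes of 2.59 and 2.50 and no overlap between the groups. AT2G39980, an acyltransferase of the BAHD family, had 339, 331 and 242 TPM with ACC, against 87.9, 58.9 and 42.5 TPM in mock (log2 fold change 2.30, adjusted p = 0.000286). AT3G20395, a RING-domain protein of the kind that often acts as ubiquitin ligase, had 128, 159.5 and 124 TPM with ACC, against 33, 20.5 and 33 TPM in mock (log2 fold change 2.24, adjusted p = 0.00124). These 6 genes kept their call in all 19 alternative analyses.

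**Figure D2:**
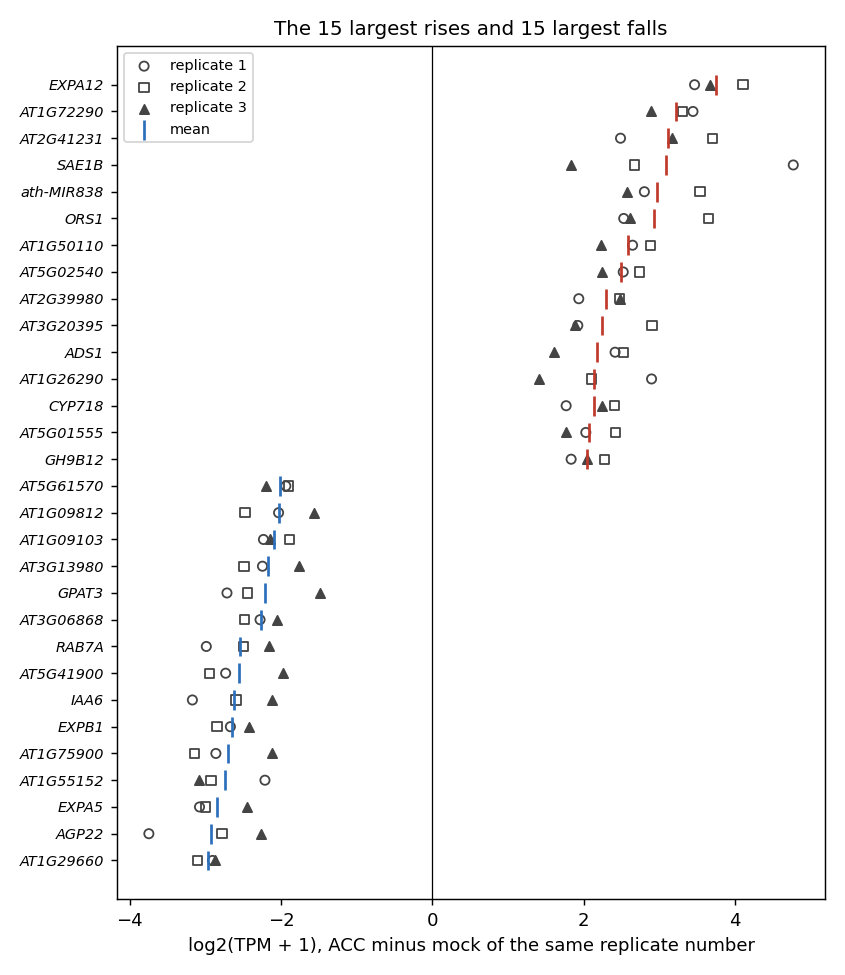
Difference of ACC minus mock in log2(TPM + 1) (horizontal axis) in each of the 3 same-numbered pairs (symbols) and their mean (vertical dash) for the 15 genes of largest rise and the 15 of largest fall. All 3 pairs lie on 1 side of 0 for each gene, as the rule that picked these genes requires. SAE1B has the widest spread among them.

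At the other end, AT1G29660, a GDSL-type esterase or lipase, had 1.17, 1.73 and 1.07 TPM in ACC libraries, against 15.2, 22.4 and 14.2 TPM in mock libraries, the largest fall that met the naming rule (log2 fold change -2.96, SE 0.14, adjusted p = 0.000239). AT5G41900, annotated as BODYGUARD 2, a relative of the cuticle-forming hydrolase BODYGUARD, had 1.22, 1.24 and 0.74 TPM with ACC, against 13.7, 16.3 and 5.81 TPM in mock. AT3G13980, annotated as a relative of BIG GRAIN 1, a protein known in rice for raising grain size, had 7.1, 8.25 and 9.08 TPM with ACC, against 37.4, 50.9 and 33.3 TPM in mock. Both fell, with log2 fold changes of -2.55 and -2.17. GPAT3, a glycerol-3-phosphate acyltransferase, had 15.9, 26.2 and 17.3 TPM with ACC, against 110.1, 147 and 50.4 TPM in mock (log2 fold change -2.21, adjusted p = 0.00295). Other members of these 2 sets of 15 are less certain. SAE1B shares 96.4% of its 31-base words with another gene and was listed at 0 in 2 mock libraries, and ath-MIR838 was listed at 0 in all 3. AT1G26290, AT1G55152, AT1G09103 and AT5G01555 lie wholly over an antisense gene, and AT3G06868 and AT2G41231 do so over 62.4% and 65.2% of their exons, which matters because the use of strand in the counting is not stated. Among the 1222 called genes 46 had an antisense gene over at least 50% of their exons.

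Short upstream sequences were examined for genes that rose, because EIN3-type factors are known to bind sequences close to ATGNANCT (N is any base). In the 250 bases before each gene start of the RefSeq TAIR10.1 annotation, read on both strands, this motif was present for 64 of 354 genes that rose (18.1%), 31 of 134 that rose at least 2-fold (23.1%), 104 of 864 that fell (12.0%), 2581 of 20485 tested genes (12.6%) and 12.8% of all windows of that length. GCCGCC, the core of the GCC box known as a site of ERF factors, was present for 2.82% of those that rose, 0.463% of those that fell and 1.99% of tested genes. CACGTG, the G-box, was present for 8.47% of those that rose, 9.84% of those that fell and 7.21% of tested genes, and TGTCTC, an element of auxin-response promoters, for 9.04%, 13.1% and 10.7% of the same sets. These shares were not tested, a match is no proof of binding, and none of the 4 motifs contains another. Of 7 windows with an ATGNANCT match and no exon of another gene, among the largest rises and the ethylene genes that rose, the 5 shown are the 3 of largest rise and the 2 that belong to the ethylene pathway; capitals mark matches on either strand, and each runs 5′ to 3′ toward its gene.
AT1G50110 (chr1:18560392-18560641, minus strand): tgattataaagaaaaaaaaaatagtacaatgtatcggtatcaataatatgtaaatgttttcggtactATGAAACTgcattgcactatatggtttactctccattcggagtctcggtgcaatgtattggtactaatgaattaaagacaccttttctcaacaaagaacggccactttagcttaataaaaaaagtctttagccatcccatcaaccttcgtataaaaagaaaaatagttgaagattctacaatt
AT3G20395 (chr3:7113900-7114149, minus strand): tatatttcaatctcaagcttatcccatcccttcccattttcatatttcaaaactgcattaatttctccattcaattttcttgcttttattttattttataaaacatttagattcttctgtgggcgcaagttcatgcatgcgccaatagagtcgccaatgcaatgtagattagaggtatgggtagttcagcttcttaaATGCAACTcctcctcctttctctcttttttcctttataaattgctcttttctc
ADS1 (chr1:1843213-1843462, plus strand): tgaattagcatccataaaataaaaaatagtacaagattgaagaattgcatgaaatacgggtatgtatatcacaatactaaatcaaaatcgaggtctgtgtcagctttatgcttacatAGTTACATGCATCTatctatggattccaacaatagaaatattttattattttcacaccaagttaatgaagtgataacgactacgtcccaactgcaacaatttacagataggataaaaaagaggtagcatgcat
EDF3 (chr3:9396022-9396271, plus strand): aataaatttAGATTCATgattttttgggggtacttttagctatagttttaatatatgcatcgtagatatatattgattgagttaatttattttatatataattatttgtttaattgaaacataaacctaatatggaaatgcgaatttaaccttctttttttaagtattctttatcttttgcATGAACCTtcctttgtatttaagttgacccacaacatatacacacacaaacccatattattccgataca
CTR1 (chr5:979850-980099, minus strand): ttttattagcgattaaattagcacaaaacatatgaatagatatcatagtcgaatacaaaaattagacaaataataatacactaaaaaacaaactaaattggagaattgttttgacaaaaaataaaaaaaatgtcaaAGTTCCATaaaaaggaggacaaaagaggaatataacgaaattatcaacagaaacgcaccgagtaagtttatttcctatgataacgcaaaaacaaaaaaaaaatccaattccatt
The match nearest to the gene start lay 175 bases upstream in AT1G50110, 45 in AT3G20395, 119 in ADS1, 61 in EDF3 and 106 in CTR1. ADS1 and EDF3 held 2 matches each, overlapping in ADS1.

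Genes of ethylene perception and signalling rose. Of 13 perception and signalling genes, all tested, 7 were called higher (53.8% against 1.71% of all genes). In the other direction 0 were called lower (limma, unadjusted p under 0.05 and lower, 0). The median log2 fold change was 0.61 against 0.00 over all tested genes. Among receptors, ERS2 had 50.4, 46.4 and 45.4 TPM in ACC libraries, against 13.4, 11.5 and 18.6 TPM in mock libraries, ERS1 averaged 249.5 ± 41.6 TPM with ACC and 144 ± 25.2 TPM in mock, and ETR2 averaged 110.2 ± 7.44 TPM with ACC and 63.1 ± 13.3 TPM in mock (SD, n = 3 each). These 3 rose, with log2 fold changes of 1.67, 0.79 and 0.81. The other receptors did not pass the test: ETR1 averaged 23.8 ± 3.45 TPM with ACC and 21.8 ± 4.09 TPM in mock, and EIN4 14.7 ± 4.6 TPM with ACC and 14.5 ± 0.705 TPM in mock.

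Downstream of the receptors, CTR1, the kinase that holds the pathway off, had 155, 148 and 110.3 TPM with ACC, against 69.2, 60.4 and 46.6 TPM in mock. Its groups were well apart and the log2 fold change was 1.22 (SE 0.08, adjusted p = 0.000521). RTE1, which stabilises the signalling state of ETR1, averaged 34 ± 3.92 TPM with ACC and 10.3 ± 0.448 TPM in mock (log2 fold change 1.62). EIN2, the membrane protein that relays the signal to the nucleus, had 116, 97.3 and 69 TPM with ACC, against 64.1, 59 and 53 TPM in mock (log2 fold change 0.64, adjusted p = 0.0352), and lost its call in 12 of 19 alternatives. EBF1 and EBF2 encode F-box proteins that mark EIN3 for destruction. EBF2 rose, with 248, 257 and 209.6 TPM with ACC, against 175, 162 and 132 TPM in mock (log2 fold change 0.61, adjusted p = 0.01). EBF1 averaged 125 ± 3.67 TPM with ACC and 121 ± 0.106 TPM in mock and did not pass the test. The master factors themselves did not pass it either: EIN3 averaged 130.4 ± 25.6 TPM with ACC and 136 ± 16.2 TPM in mock, and EIL1 80.7 ± 2.94 TPM with ACC and 89 ± 1.88 TPM in mock. RAN1, a copper transporter that supplies the receptors, averaged 52 ± 17.4 TPM with ACC and 55.2 ± 18.9 TPM in mock. Of the 7 members that rose, ERS2 and RTE1 kept their call in all 19 alternatives, and 2 of the 7 were called without the replicate block.

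**Figure D3:**
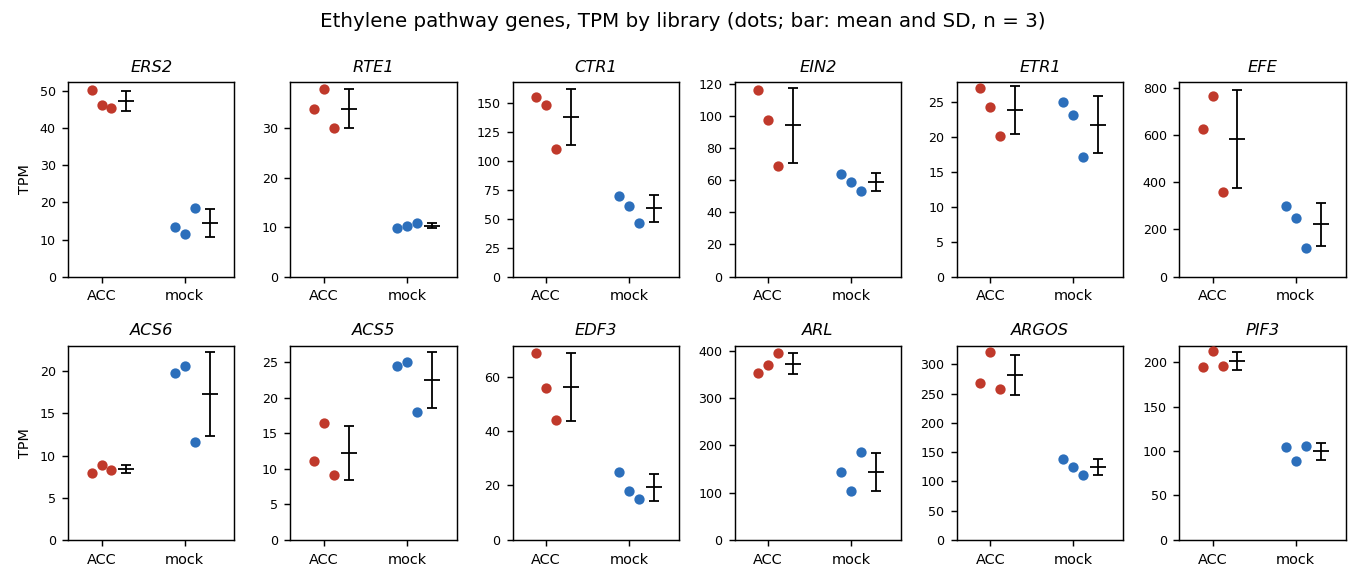
TPM (vertical axes, each from 0) of 12 genes in the 3 ACC libraries (red, left) and the 3 mock libraries (blue, right), with mean and SD (n = 3). Repressors and receptors such as CTR1 and ERS2 are higher with ACC, ETR1 overlaps between the groups, EFE is higher and the synthase genes ACS5 and ACS6 are lower.

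The called enzymes of ethylene synthesis differed in direction by step, but several oxidase and synthase genes were not called. ACC synthases make ACC and ACC oxidases consume it. Of 17 synthesis genes 14 were tested. Of these 1 rose (7.14% against 1.71% of all genes) and 4 fell (28.6% against 4.18%). EFE (ACO4), an ACC oxidase, had 628, 765 and 359 TPM in ACC libraries, against 298, 247 and 121 TPM in mock libraries. Every ACC library was above every mock library, and EFE rose with a log2 fold change of 1.42 (SE 0.19, adjusted p = 0.00536). ACO1 had 28.3, 51.2 and 18.1 TPM with ACC, against 15.5, 7.66 and 10.3 TPM in mock (log2 fold change 1.39, adjusted p = 0.0626), short of the threshold. The oxidase genes AT1G77330 and AT1G12010 averaged 312 ± 132 and 25 ± 9.18 TPM with ACC, against 255 ± 133 and 21.9 ± 8.73 TPM in mock.

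The ACC synthase genes ACS5, ACS6 and ACS8 fell together with EOL2, which encodes a protein related to ETO1, a factor that marks ACC synthases for breakdown. ACS5 had 11.1, 16.5 and 9.17 TPM with ACC, against 24.4, 25 and 17.9 TPM in mock (log2 fold change -0.85, adjusted p = 0.0295). ACS6 had 7.98, 8.88 and 8.34 TPM with ACC, against 19.8, 20.6 and 11.6 TPM in mock (log2 fold change -0.92, adjusted p = 0.0287). ACS8 was scarce, with 0.45, 0.3 and 0.18 TPM with ACC, against 2.41, 2.98 and 3.58 TPM in mock (log2 fold change -1.60, adjusted p = 0.00519). Groups did not overlap for any of these. EOL2 averaged 8.88 ± 2.98 TPM with ACC and 15.9 ± 3.15 TPM in mock (adjusted p = 0.0498), while ETO1 averaged 16.3 ± 2.28 TPM with ACC and 19.4 ± 2.44 TPM in mock and, like EOL1 (log2 fold change -0.03), did not pass the test. ACS2, ACS7 and ACS11 had log2 fold changes of -0.54, -0.45 and -0.58 and also did not pass it, and ACS1, ACS4 and ACS9 stayed under the filter of 1 TPM. Only ACS8 of this list was called without the replicate block. ACS5, ACS6 and EOL2 lost their call in 11, 12 and 15 of 19 alternatives.

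Neighbouring steps of the pathway were collected in a list made after the values had been seen. Of its 12 tested members 2 rose (16.7% against 1.71% of all genes). None fell (limma, unadjusted p under 0.05 and lower, 0). Making ethylene releases cyanide, and CYSC1, the mitochondrial enzyme that detoxifies it, had 1190.2, 1124 and 817 TPM in ACC libraries, against 623, 538 and 535 TPM in mock libraries (log2 fold change 0.87, adjusted p = 0.00724). SAM-2, which makes the S-adenosylmethionine from which ACC is formed, had 512, 476 and 848 TPM with ACC, against 279, 279.7 and 528 TPM in mock (log2 fold change 0.77, adjusted p = 0.00597). Its groups overlapped, with replicate 3 the highest of each, while each ACC library was above the mock library of the same number. Neither was called without the replicate block.

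Transcription factors of the AP2/ERF family, some of which act right after EIN3, were among the genes that rose. Of 108 members tested 21 were higher (19.4% against 1.71% of all genes) and 7 lower (6.48% against 4.18%), with a median log2 fold change of 0.13. EDF3, a factor of the EDF group that EIN3 is known to switch on, had 68.7, 55.9 and 44 TPM with ACC, against 24.9, 17.9 and 15 TPM in mock (log2 fold change 1.50, SE 0.13, adjusted p = 0.00113). TEM1 (EDF1), known as a repressor of flowering, had 298, 299.5 and 189 TPM with ACC, against 182, 139 and 73.6 TPM in mock (log2 fold change 1.05). RAV2 (EDF2) averaged 94 ± 22.5 TPM with ACC and 63.1 ± 13 TPM in mock, and rose with overlapping groups (log2 fold change 0.56), whereas RAV1 (EDF4), at 182 ± 48.1 TPM with ACC and 219 ± 65.1 TPM in mock, did not pass the test. Thus 3 of the 4 EDF genes rose, and none of them was called without the replicate block.

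Within the ERF branch ERF1, a direct target of EIN3 in the known pathway, averaged 8.89 ± 3.01 TPM with ACC and 1.65 ± 1.26 TPM in mock (log2 fold change 1.98). The scarce ERF11, a repressor, had 8.2, 7.84 and 3.48 TPM with ACC, against 1.35, 0.9 and 0.85 TPM in mock (log2 fold change 1.82, adjusted p = 0.00348). LEP had 10.2, 13.7 and 6.09 TPM with ACC, against 3.14, 1.83 and 2.17 TPM in mock (log2 fold change 1.66, adjusted p = 0.00802). Among abundant members, RAP2.2, a group VII factor with a role in low-oxygen responses, had 735, 781 and 629 TPM with ACC, against 435, 356 and 359.8 TPM in mock (log2 fold change 0.90, adjusted p = 0.00519). EBP (RAP2.3), of the same group, averaged 331 ± 103 TPM with ACC and 156 ± 69.4 TPM in mock (log2 fold change 1.14). Other members that rose were ERF2 (1.50), AT1G36060 (1.61), ERF9 (1.08), DREB26 (1.05), Rap2.6L (0.94) and ERF-1 (0.78), given as log2 fold changes. Among those that fell, CBF2, a regulator of cold acclimation, had 0.34, 0.86 and 0.37 TPM with ACC, against 4.31, 4.12 and 1.44 TPM in mock (log2 fold change -1.43). SNZ and SMZ, repressors of flowering, and their relative RAP2.7 fell as well, with log2 fold changes of -0.96, -0.64 and -0.38. Without the replicate block 3 members of the family were called higher and 0 lower.

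The low-oxygen genes to which group VII factors are known to bind were above 0 in all 12 cases, against 10308 of 20753 tested genes. The median log2 fold change was 0.81, but 1 was called (8.33% higher, against 1.71% of all genes). That gene, LBD41, had 86, 107 and 77.2 TPM in ACC libraries, against 65.2, 41.2 and 49 TPM in mock libraries (log2 fold change 0.80, adjusted p = 0.0335). The others were uneven within groups: ADH1, alcohol dehydrogenase, had 246, 559.6 and 77.9 TPM with ACC, against 275, 74.5 and 75.6 TPM in mock, and HB1, a haemoglobin, had 229, 507 and 66.5 TPM with ACC, against 142, 46.1 and 34.7 TPM in mock. ACC replicate 2 and mock replicate 1 were the highest of their groups for both. In limma 8 of the 12 were higher at an unadjusted p under 0.05, against 1391 of 20753 tested genes. Without the replicate block 0 were called.

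All 3 members of the ARGOS family rose. These small membrane proteins enlarge organs when overproduced and dampen ethylene sensing. ARL had 353, 369.9 and 397 TPM in ACC libraries, against 144, 104 and 185 TPM in mock libraries (log2 fold change 1.41, SE 0.15, adjusted p = 0.00282). ARGOS had 269, 322 and 257 TPM with ACC, against 138, 125 and 111 TPM in mock (log2 fold change 1.17, SE 0.14, adjusted p = 0.00371). ORS1 averaged 99.2 ± 16.1 TPM with ACC and 12.4 ± 3.81 TPM in mock (log2 fold change 2.93), but AT2G41231, which is annotated as antisense to it over 42.7% of its exons, rose with it (232 ± 38.2 TPM with ACC, against 26.7 ± 10.1 TPM in mock), and reads of the pair cannot be told apart. All 3 were called without the replicate block too.

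Of 11 apical hook genes, 2 rose (18.2% against 1.71% of all genes) and 1 fell (9.09% against 4.18%). HLS1, an acetyltransferase-like protein without which no hook forms, averaged 96.9 ± 10.9 TPM with ACC and 36.4 ± 4.95 TPM in mock. AT4G09530 (SAUR17), which is known to promote hook maintenance in darkness, had 51.7, 45.9 and 47.6 TPM with ACC, against 24.3, 16.4 and 21.7 TPM in mock (log2 differences of 1.06, 1.43 and 1.10 in the 3 pairs, limma adjusted p = 0.00201). PIN3, an auxin exporter, had 102, 89.3 and 90.3 TPM with ACC, against 151, 164 and 158 TPM in mock (log2 fold change -0.74, SE 0.10, adjusted p = 0.00571). The kinase genes WAG1 and WAG2 had log2 fold changes of 0.60 and 0.17 and did not pass the test, nor did AUX1, LAX3, PIN4, PIN7, TIR1 or ARF2, which lay between -0.35 (AUX1) and 0.19 (ARF2).

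Auxin-response genes were lower as a group of counts. Auxin drives cell elongation, and Aux/IAA, SAUR and GH3 genes are its classical early targets. Of 26 Aux/IAA repressor genes tested 8 fell (30.8% against 4.18% of all genes) and 2 rose (7.69% against 1.71%), with a median of -0.19. IAA19 had 59.5, 105 and 46.5 TPM in ACC libraries, against 242, 249 and 112 TPM in mock libraries (log2 fold change -1.50, SE 0.21, adjusted p = 0.00724). IAA5 had 3.35, 4.67 and 1.23 TPM with ACC, against 8.29, 9.11 and 5.8 TPM in mock (log2 fold change -1.18, adjusted p = 0.0139). IAA6 averaged 3.81 ± 1.2 TPM with ACC and 29.6 ± 10.7 TPM in mock, and was the member that kept its call in all 19 alternatives. IAA32, IAA14, SHY2 (IAA3), IAA29 and IAA34 fell by 0.66 to 1.01 on the log2 scale. In the other direction IAA20 had 100.5, 93.7 and 129 TPM with ACC, against 43.1, 43.9 and 94.5 TPM in mock (log2 fold change 0.91), and IAA28 had 53.2, 52.5 and 19.4 TPM with ACC, against 35, 30.5 and 14.1 TPM in mock (log2 fold change 0.60). For both, groups overlapped, and the rise was present in each pair.

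Among 68 SAUR genes tested, which encode small proteins that promote growth by acidifying the cell wall, 18 fell (26.5%) and 4 rose (5.88%), and the median was -0.43. AT2G16580 (SAUR8) had 1.67, 1.27 and 1.03 TPM with ACC, against 8.37, 8.65 and 6.43 TPM in mock (log2 fold change -1.92, adjusted p = 0.00161). AT2G18010 (SAUR10) had 5.92, 9.18 and 2.35 TPM with ACC, against 22.8, 25.2 and 9.84 TPM in mock (log2 fold change -1.61, adjusted p = 0.00117). SAUR63 averaged 16.2 ± 4.65 TPM with ACC and 45.8 ± 14.7 TPM in mock, and AT4G34760 averaged 30.4 ± 4.99 TPM with ACC and 82.8 ± 14.5 TPM in mock, with log2 fold changes of -1.42 and -1.41. Besides SAUR17, the risers were AT5G20820 (SAUR76), AT1G56150 (SAUR71) and AT4G12410 (SAUR35). AT5G20820 had 34, 33.8 and 11.9 TPM with ACC, against 12.5, 8.47 and 3.22 TPM in mock (log2 fold change 1.62, adjusted p = 0.00135), AT1G56150 averaged 3.19 ± 0.583 TPM with ACC and 0.557 ± 0.36 TPM in mock, and AT4G12410 averaged 23.9 ± 13.5 TPM with ACC and 8.1 ± 2.61 TPM in mock. Members of this tandemly duplicated family are similar in sequence, so reads may be split among neighbours. Without the replicate block 2 SAUR genes were called lower and 1 higher.

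Of 14 GH3 genes tested, which tie hormones to amino acids, 3 fell (21.4% against 4.18% of all genes). None rose (limma, unadjusted p under 0.05 and higher, 0). GH3.17 had 9.38, 13.2 and 6.78 TPM with ACC, against 41.4, 46.1 and 20.2 TPM in mock (log2 fold change -1.74, SE 0.13, adjusted p = 0.000767). DFL1 and GH3.3 fell by 0.88 and 0.72 on the log2 scale, with groups that overlapped. Of 14 auxin synthesis genes tested 1 fell (7.14% against 4.18% of all genes), and of 12 auxin transporters 2 fell (16.7%), PIN3 and LAX2. None of either list was called higher (limma, unadjusted p under 0.05 and higher, 3 of synthesis and 0 of transport). YUC8, a last-step auxin synthesis enzyme, had 8.55, 8.05 and 7.73 TPM with ACC, against 13.6, 14.1 and 17 TPM in mock (log2 fold change -0.80, adjusted p = 0.0338). LAX2, an auxin importer, had 6.67, 6.94 and 14.6 TPM with ACC, against 13.9, 16.6 and 25.4 TPM in mock (log2 fold change -0.96, adjusted p = 0.00597). The auxin response factors ARF10 and ARF11, 2 of 15 tested (13.3% against 4.18% of all genes), fell by 0.55 and 0.59 on the log2 scale. YUC8 and ARF11 lost their call in 13 and 12 of 19 alternatives.

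Of 12 brassinosteroid synthesis and inactivation genes 3 fell (25.0% against 4.18% of all genes). DWF4, the rate-limiting enzyme, had 16.7, 22.6 and 9.41 TPM with ACC, against 34.5, 34.8 and 15 TPM in mock (log2 fold change -0.74, adjusted p = 0.0126), and BR6OX1 and CYP72C1 fell by 1.22 and 0.54 on the log2 scale. Of 12 gibberellin synthesis and inactivation genes 2 fell (16.7%), GA3OX1 (log2 fold change -0.77) and GA20OX1 (-0.84). GA20OX1 lost its call in 13 of 19 alternatives, and 0 genes of the list were called without the replicate block. GASA6, a gibberellin-induced growth gene, had 115, 82.8 and 93 TPM with ACC, against 182, 215 and 189 TPM in mock (log2 fold change -1.02, SE 0.14, adjusted p = 0.00692). It was the 1 gene called of 14 gibberellin signalling genes tested (7.14% lower, against 4.18% of all genes). RR16, a response regulator that damps cytokinin signalling, had 4.27, 5.63 and 3.62 TPM with ACC, against 1.39, 0.98 and 0.59 TPM in mock (log2 fold change 1.47, adjusted p = 0.00505). Of 11 cytokinin response and oxidase genes tested RR16 alone was called (9.09% higher, against 1.71% of all genes), and 7 lay below 0. ABI1, a phosphatase that restrains abscisic acid signalling, had 160.5, 152 and 137 TPM with ACC, against 80.4, 72.2 and 60.1 TPM in mock (log2 fold change 1.08, SE 0.09, adjusted p = 0.00116). Of 12 abscisic acid, drought and cold genes tested ABI1 alone was called (8.33% higher, against 1.71% of all genes). In that list 9 genes lay below 0, and the median was -0.16. Of 20 jasmonate genes tested JAZ1 rose and JAZ12 fell, by 0.47 and 0.39 on the log2 scale, which is 5% each against 1.71% higher and 4.18% lower over all genes. They lost their call in 14 and 13 of 19 alternatives. Ethylene and salicylate defence genes were nearly silent, with 6 of 8 under the filter, and PR4, the best expressed, had 117, 117 and 19.6 TPM with ACC, against 114, 99.9 and 9.18 TPM in mock, which did not pass the test.

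Light-signalling genes changed although seedlings stood in darkness. PIF3, a bHLH factor that represses greening in the dark, had 194, 213 and 196 TPM in ACC libraries, against 105, 88.5 and 106 TPM in mock libraries. Its groups were far apart, and it rose (log2 fold change 1.01, SE 0.11, adjusted p = 0.00239). PIF4, which promotes elongation in shade and warmth, had 4.51, 5.78 and 7.6 TPM with ACC, against 11.1, 13.7 and 14.7 TPM in mock, and fell (log2 fold change -1.04, SE 0.13, adjusted p = 0.00506). The other 4 tested members of the list of phytochrome-interacting factors did not pass the test. PIL2 (PIF6), listed with the shade avoidance factors below, was called higher (log2 fold change 1.14). The calls of PIF3 and PIF4 stood without the replicate block. They were lost with all 13 libraries in the fit or without replicate 2.

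Among 18 light-signalling and greening regulators 5 fell (27.8% against 4.18% of all genes). None rose (limma, unadjusted p under 0.05 and higher, 0). GPRI1 (GLK1) and GLK2 encode the paired factors that switch on chloroplast genes. GPRI1 had 12, 9.93 and 12.6 TPM with ACC, against 24.7, 29.5 and 31.7 TPM in mock (log2 fold change -1.24, adjusted p = 0.00266), and GLK2 had 14.9, 17 and 16.8 TPM with ACC, against 30.9, 40.6 and 34.8 TPM in mock (log2 fold change -1.08, adjusted p = 0.00124). CGA1, a GATA factor that also promotes greening, was scarce, with 1.3 ± 0.291 TPM with ACC and 4.2 ± 1.49 TPM in mock (log2 fold change -1.15). HYH, a bZIP factor related to HY5, averaged 22.4 ± 5.09 TPM with ACC and 48.3 ± 15.7 TPM in mock, and SPA1, a partner of the COP1 ubiquitin ligase, 9.47 ± 2.96 TPM with ACC and 13.5 ± 2.51 TPM in mock. The genes that GLK factors are known to drive held no call at this time. Of 32 antenna and Rubisco small subunit genes none was called (limma, unadjusted p under 0.05, 3 higher and 0 lower). Of 14 chlorophyll synthesis genes none was called either (unadjusted, 0 and 0). PORB, the most abundant of those, had 3083, 2041 and 3912 TPM with ACC, against 1475, 1467 and 4126 TPM in mock. Levels in both lists differed widely between libraries, and a link to GPRI1 or GLK2 was not tested.

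Shade avoidance factors, which promote or tune elongation when red light is scarce, fell in 6 of 11 cases (54.5% against 4.18% of all genes). In the other direction 1 rose (9.09% against 1.71%). HAT1, a homeodomain factor, had 20.9, 17.9 and 14.2 TPM with ACC, against 50.5, 51.1 and 33.8 TPM in mock (log2 fold change -1.30, SE 0.09, adjusted p = 0.000683), and kept its call in all 19 alternatives. HFR1, a brake on shade elongation, had 51.4, 72.5 and 56.9 TPM with ACC, against 122, 132 and 70.9 TPM in mock (log2 fold change -0.80, adjusted p = 0.0334), with overlapping groups. BIM1, which works with the brassinosteroid factor BES1, averaged 36.3 ± 4 TPM with ACC and 54.6 ± 11.6 TPM in mock (log2 fold change -0.56). PIL2 (PIF6) rose (1.14), but an antisense gene covers 84.5% of its exons. Without the replicate block HAT1 alone of the list was called.

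Arabinogalactan proteins are heavily sugared proteins of the wall and plasma membrane, and of 41 tested 10 fell (24.4% against 4.18% of all genes) and none rose (unadjusted p under 0.05 and higher, 0), with a median of -0.52. AGP22 had 33, 65.7 and 45.2 TPM in ACC libraries, against 455, 457 and 221 TPM in mock libraries (log2 fold change -2.93, adjusted p = 0.00117). FLA9, a fasciclin-like member, had 298, 434 and 320.0 TPM with ACC, against 1208, 1448 and 690.4 TPM in mock (log2 fold change -1.62, SE 0.24, adjusted p = 0.00859). AGP13 had 12.8, 17 and 13.6 TPM with ACC, against 62.2, 73 and 28.3 TPM in mock (log2 fold change -1.75, adjusted p = 0.00999). In each of these 3, all ACC libraries lay below all mock libraries, and mock replicate 3 was the lowest of the mock group. AGP2, FLA17, AGP9, AGP15, AGP18 and AGP16 fell by 0.82 to 1.51 on the log2 scale, and AGP21 fell too (-1.80) but lies under an antisense gene over 85.2% of its exons. Without the replicate block AGP22 alone of the family was called, and 17 members were called lower without replicate 3.

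Expansins loosen the wall so that turgor can stretch it, and single members went opposite ways. Of 24 tested 6 fell (25.0% against 4.18% of all genes) and 2 rose (8.33% against 1.71%). EXPA6 had 16.6, 14.5 and 26.5 TPM with ACC, against 43, 55.1 and 70.0 TPM in mock (log2 fold change -1.51, SE 0.13, adjusted p = 0.00124). EXPB1 and EXPA5 averaged 3.57 ± 0.546 and 1.49 ± 0.35 TPM with ACC, against 27.6 ± 3.52 and 17.2 ± 4.83 TPM in mock. EXLA1, EXLA2 and EXPA14 fell by 0.88 to 1.06 on the log2 scale. EXPA9 rose beside EXPA12, with 168, 196 and 252 TPM with ACC, against 86.1, 81.8 and 139 TPM in mock (log2 fold change 1.02, adjusted p = 0.014). EXPA11, the most abundant, had 263, 469.6 and 185 TPM with ACC, against 291, 289 and 148 TPM in mock, and did not pass the test.

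XTH enzymes cut and rejoin xyloglucan, the polymer that ties cellulose fibres together. Of 29 tested 3 fell (10.3% against 4.18% of all genes) and 2 rose (6.90% against 1.71%). XTH31 had 309, 315 and 190.3 TPM with ACC, against 136, 124 and 84.8 TPM in mock (log2 fold change 1.22, adjusted p = 0.00633). XTH15, among the most abundant transcripts to rise, had 1182, 984 and 1987 TPM with ACC, against 644, 643 and 1161 TPM in mock (log2 fold change 0.75, adjusted p = 0.0127). TCH4, a touch-induced member, had 23.6, 22.6 and 18.1 TPM with ACC, against 65.3, 69.8 and 37.8 TPM in mock (log2 fold change -1.35, adjusted p = 0.00316), and XTR6 and XTH32 fell by 1.00 and 0.75 on the log2 scale. GH9B12, an endoglucanase-type glycosyl hydrolase, averaged 57.6 ± 2.54 TPM with ACC and 13.2 ± 1.75 TPM in mock (log2 fold change 2.05).

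Polygalacturonases and pectate lyases cut pectin, a gel of the wall. Of 27 polygalacturonases tested 5 fell (18.5% against 4.18% of all genes) and none rose (unadjusted p under 0.05 and higher, 2), and of 16 pectate lyases 4 fell (25.0%) and 1 rose (6.25% against 1.71%). The polygalacturonase AT3G06770 had 14.3, 21 and 18.4 TPM with ACC, against 49.1, 48.3 and 42.5 TPM in mock (log2 fold change -1.35, SE 0.13, adjusted p = 0.00174), and AT3G16850 had 66.2, 89.2 and 67.6 TPM with ACC, against 163, 175 and 98.5 TPM in mock (log2 fold change -0.93). The pectate lyases AT4G24780 and AT1G04680 fell by 0.94 and 0.75 on the log2 scale, while AT3G24670 rose (0.72, adjusted p = 0.00724). Of 28 pectin methylesterases AT3G49220 alone was called, lower (3.57% of them, log2 fold change -1.02). PRP2, a proline-rich wall protein, had 173, 271 and 252 TPM with ACC, against 591, 688 and 398 TPM in mock (log2 fold change -1.25), and CESA5, a cellulose synthase subunit, averaged 29.8 ± 8.64 TPM with ACC and 47 ± 9.81 TPM in mock (log2 fold change -0.66).

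Aquaporins pass water through membranes. Of 31 tested 4 fell (12.9% against 4.18% of all genes) and 2 rose (6.45% against 1.71%). The plasma membrane channel PIP3 had 948, 1004 and 927 TPM with ACC, against 2010.3, 2542 and 1605 TPM in mock (log2 fold change -1.07, SE 0.16, adjusted p = 0.00929), and PIP1;4 had 34.6, 33.4 and 55.4 TPM with ACC, against 77.2, 96.3 and 94.3 TPM in mock (log2 fold change -1.13). PIP2A had 625, 696 and 481 TPM with ACC, against 1628, 1954 and 649.9 TPM in mock (log2 fold change -1.10), and its groups overlapped through mock replicate 3. In contrast BETA-TIP, a vacuolar channel known from seeds, had 35.1, 37.1 and 44.6 TPM with ACC, against 12.4, 10.9 and 13.4 TPM in mock (log2 fold change 1.59, adjusted p = 0.00174). NIP6;1, a boron channel, averaged 7.93 ± 3.41 TPM with ACC and 2.76 ± 1.14 TPM in mock (log2 fold change 1.21).

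**Figure D4:**
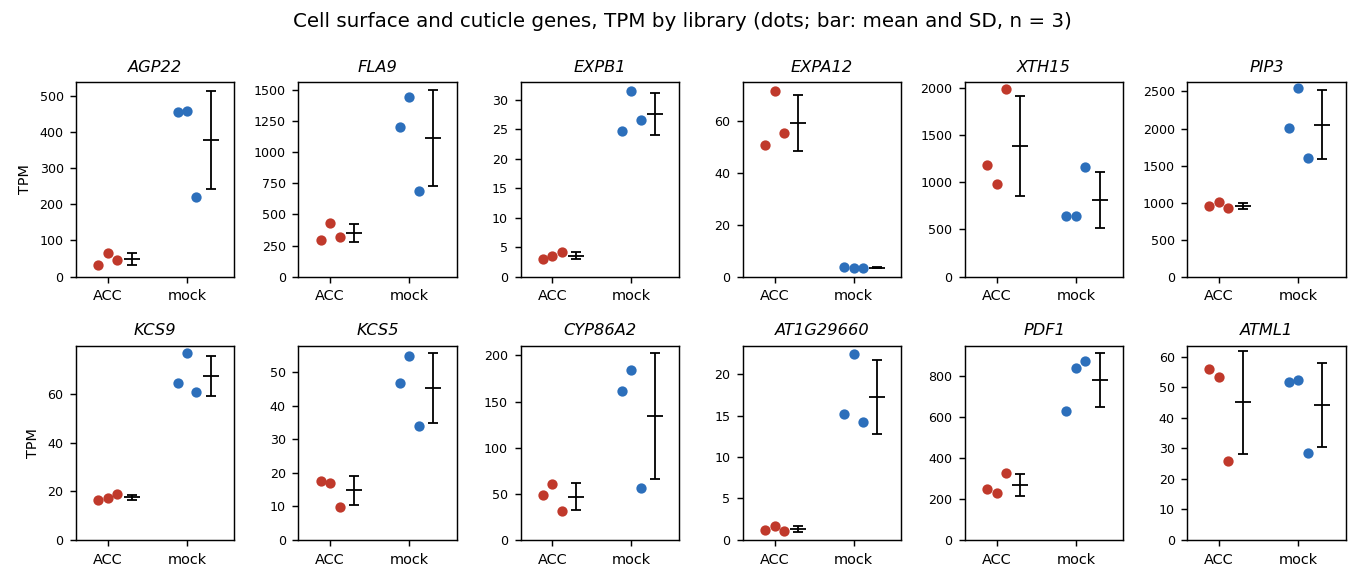
TPM (vertical axes, each from 0) of 12 cell surface, cuticle and epidermis genes in the 3 ACC libraries (red, left) and the 3 mock libraries (blue, right), with mean and SD (n = 3). EXPA12 and XTH15 are higher with ACC, ATML1 overlaps between the groups, and the other 9 genes are lower with ACC, 8 of them in all libraries and CYP86A2 with overlap.

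The cuticle, the waxy skin of the shoot epidermis, stood with the SAUR genes as the list with the most falling members. Of 45 wax, cutin and very-long-chain fatty acid genes tested 18 fell (40.0% against 4.18% of all genes). In the other direction 1 rose (2.22% against 1.71%), and the median was -0.35. Fatty acid elongation starts with KCS enzymes. KCS9 had 16.5, 17.1 and 18.7 TPM in ACC libraries, against 64.6, 76.8 and 60.9 TPM in mock libraries (log2 fold change -1.89, SE 0.14, adjusted p = 0.000765). KCS5 had 17.4, 16.9 and 9.8 TPM with ACC, against 46.8, 54.7 and 34 TPM in mock (log2 fold change -1.57, SE 0.14, adjusted p = 0.00124). KCS3, KCS6, KCS1, KCS11, KCS10 and KCS20 fell by 0.61 to 1.18 on the log2 scale, so that 8 KCS genes fell in all.

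Later steps of wax synthesis moved with elongation. CER4, a reductase that makes primary alcohols, was scarce, with 0.12, 0.23 and 0.32 TPM with ACC, against 4.24, 5.43 and 3.49 TPM in mock (log2 fold change -2.13, adjusted p = 0.00124). CER1 and CER3, which together make alkanes, averaged 33.1 ± 0.826 and 43.4 ± 5.65 TPM with ACC, against 68 ± 4.51 and 83.7 ± 8.2 TPM in mock (log2 fold changes -1.01 and -0.94). CER2, an elongation partner, averaged 87.7 ± 16.3 TPM with ACC and 166 ± 42.1 TPM in mock. LTPG1 and LTPG2, anchored proteins that carry wax outwards, averaged 329 ± 65.3 and 83.1 ± 9.97 TPM with ACC, against 616 ± 45.2 and 227 ± 65.8 TPM in mock (log2 fold changes -0.92 and -1.40). The cutin hydroxylases CYP86A2 and CYP86A4 fell by 1.37 and 1.29 on the log2 scale. The single riser was LTP5, a lipid-transfer protein, with 547, 587 and 211 TPM with ACC, against 289, 243 and 113 TPM in mock (log2 fold change 1.03). Without the replicate block 3 genes of the list were called lower and 0 higher, and without replicate 3 they were 18 and 2.

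GDSL lipases, some of whose members assemble cutin, were a list chosen after the values had been seen. The 55 tested members held 11 called lower (20% against 4.18% of all genes) and 1 called higher (1.82% against 1.71%). AT1G75900 had 4.15, 5.64 and 2.75 TPM with ACC, against 36.4, 57.6 and 15.2 TPM in mock (log2 fold change -2.71, adjusted p = 0.0011). AT3G16370 had 137, 193 and 158 TPM with ACC, against 519, 663 and 419 TPM in mock (log2 fold change -1.70, adjusted p = 0.00519), and AT5G45950 had 25.4, 36.1 and 19.1 TPM with ACC, against 101, 122 and 72.1 TPM in mock (log2 fold change -1.84). Among desaturases, ADS1, which places double bonds in fatty acids, averaged 236 ± 111 TPM with ACC and 47.1 ± 11.3 TPM in mock and rose (log2 fold change 2.18), whereas its relatives AT1G06360 and ADS2 fell by 1.25 and 0.76 on the log2 scale. AT1G06360 had 95.5, 108 and 74.1 TPM with ACC, against 238, 249.5 and 178 TPM in mock. ADS2 had 54.4, 58 and 69.4 TPM with ACC, against 95.5, 101 and 112 TPM in mock.

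The 4 epidermis markers summed to 568.9, 542.0 and 522.3 TPM in ACC libraries, against 1077.4, 1318.8 and 1201.8 TPM in mock libraries. PDF1, a protodermal surface protein, had 251, 227 and 328 TPM with ACC, against 633, 841 and 878 TPM in mock (log2 fold change -1.54, SE 0.15, adjusted p = 0.00162), and KCS10 (FDH), also counted among the cuticle genes, fell by 0.72 on the log2 scale. Of the factors that define epidermal identity, ATML1 averaged 45.1 ± 16.8 TPM with ACC and 44.2 ± 13.7 TPM in mock. PDF2 (AT4G04890) averaged 36.4 ± 4.4 TPM with ACC and 52.8 ± 4.65 TPM in mock, with all ACC libraries below all mock libraries (log2 fold change -0.53, limma adjusted p = 0.0673). Neither passed the test, but at an unadjusted p under 0.05 in limma 3 of the 4 markers were lower, PDF2 among them. Over all genes 2408 of 20753 were lower at that threshold. The part of the epidermis markers in the cuticle result was not tested.

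NSP5, which diverts the breakdown of glucosinolates to nitriles, had 736, 554 and 876 TPM in ACC libraries, against 219.9, 213 and 309 TPM in mock libraries (log2 fold change 1.54, SE 0.11, adjusted p = 0.000595), and kept its call in all 19 alternatives. ICL, isocitrate lyase of the glyoxylate cycle, had 1219.8, 1041 and 1216 TPM with ACC, against 575, 477 and 738 TPM in mock (log2 fold change 0.98, SE 0.13, adjusted p = 0.00533). ACX1, which starts the oxidation of long-chain fatty acids in peroxisomes, had 337, 271 and 339.6 TPM with ACC, against 181, 161 and 219 TPM in mock (log2 fold change 0.76, adjusted p = 0.0049). These 2 were the members called among 13 genes of seed oil use (15.4% higher, against 1.71% of all genes), a list chosen after the values had been seen. In branched-chain amino acid metabolism 3 of 14 rose (21.4% against 1.71% of all genes) and none fell (unadjusted, 0). BCAT-1 and BCAT-2, aminotransferases, averaged 33.6 ± 5.78 and 225 ± 15.3 TPM with ACC, against 15.5 ± 2 and 117 ± 26 TPM in mock. IVD, a dehydrogenase of leucine breakdown, averaged 294 ± 66.3 TPM with ACC and 197 ± 73.7 TPM in mock. AT1G50110, shown above, carries out the same type of step and was not on that list.

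Of 24 phenylpropanoid and flavonoid genes tested 5 fell (20.8% against 4.18% of all genes) and none rose (unadjusted p under 0.05 and higher, 0). PAP1, a MYB factor that switches on anthocyanin synthesis, had 4.33, 3.77 and 4.41 TPM with ACC, against 10.4, 12.8 and 23.2 TPM in mock (log2 fold change -1.59, SE 0.22, adjusted p = 0.00671). MYB111, a regulator of flavonol synthesis, had 1.23, 1.85 and 0.94 TPM with ACC, against 8.13, 6.62 and 2.53 TPM in mock (log2 fold change -1.44). Of the enzymes, TT4, chalcone synthase, averaged 16.7 ± 6.62 TPM with ACC and 39.1 ± 15.1 TPM in mock (log2 fold change -1.18), and FLS1, flavonol synthase, averaged 1.22 ± 0.212 TPM with ACC and 4.67 ± 1.61 TPM in mock (log2 fold change -1.31). CHIL, a partner of chalcone synthase, fell by 0.64 on the log2 scale. None of the 5 was called without the replicate block.

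The peroxidase gene AT5G19890 had 200.5, 218 and 60.9 TPM with ACC, against 71.6, 41.1 and 24.5 TPM in mock (log2 fold change 1.71, SE 0.22, adjusted p = 0.00505), with overlap through replicate 3. Of 58 class III peroxidases 2 rose and 2 fell (3.45% each, against 1.71% higher and 4.18% lower over all genes). Of 48 glutathione transferases 3 rose (6.25%), all of the tau class, and none fell (unadjusted p under 0.05 and lower, 3), and GSTU6 had 16.3, 19.1 and 7.88 TPM with ACC, against 8.29, 6.55 and 3.85 TPM in mock (log2 fold change 1.06, adjusted p = 0.00638). Among senescence-linked factors NAC6 (ORE1), which drives leaf ageing, had 55.2, 52 and 21.9 TPM with ACC, against 34.3, 24.1 and 11.1 TPM in mock (log2 fold change 0.89, adjusted p = 0.0048), and NAP rose as well (0.70).

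Of 217 cytosolic ribosomal protein genes tested none was called (limma, unadjusted p under 0.05, 10 higher and 0 lower), with a median of 0.10. Of 62 cell cycle genes CYCD1;1, a D-type cyclin, alone was called (1.61% lower, against 4.18% of all genes). It had 13.8, 11.9 and 17.3 TPM in ACC libraries, against 25.7, 27.3 and 31.8 TPM in mock libraries (log2 fold change -0.94, SE 0.12, adjusted p = 0.0049). The 28 tested major latex and Bet v 1 genes held no call (unadjusted, 1 higher and 2 lower). Seed storage and oil body genes had a median of -0.93 with 1 of 11 called, SESA4, at 0.58, 0.39 and 12.4 TPM with ACC, against 2.86, 6.82 and 21.3 TPM in mock, and these levels moved with the library: CRA1, the most abundant, had 81.8, 204 and 1312 TPM with ACC, against 211, 347 and 864 TPM in mock. GL2, a factor that blocks root hair fate, was the root hair gene called, at 3.73 ± 0.0651 TPM with ACC and 6.68 ± 0.577 TPM in mock (log2 fold change -0.70).

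**Figure D5:**
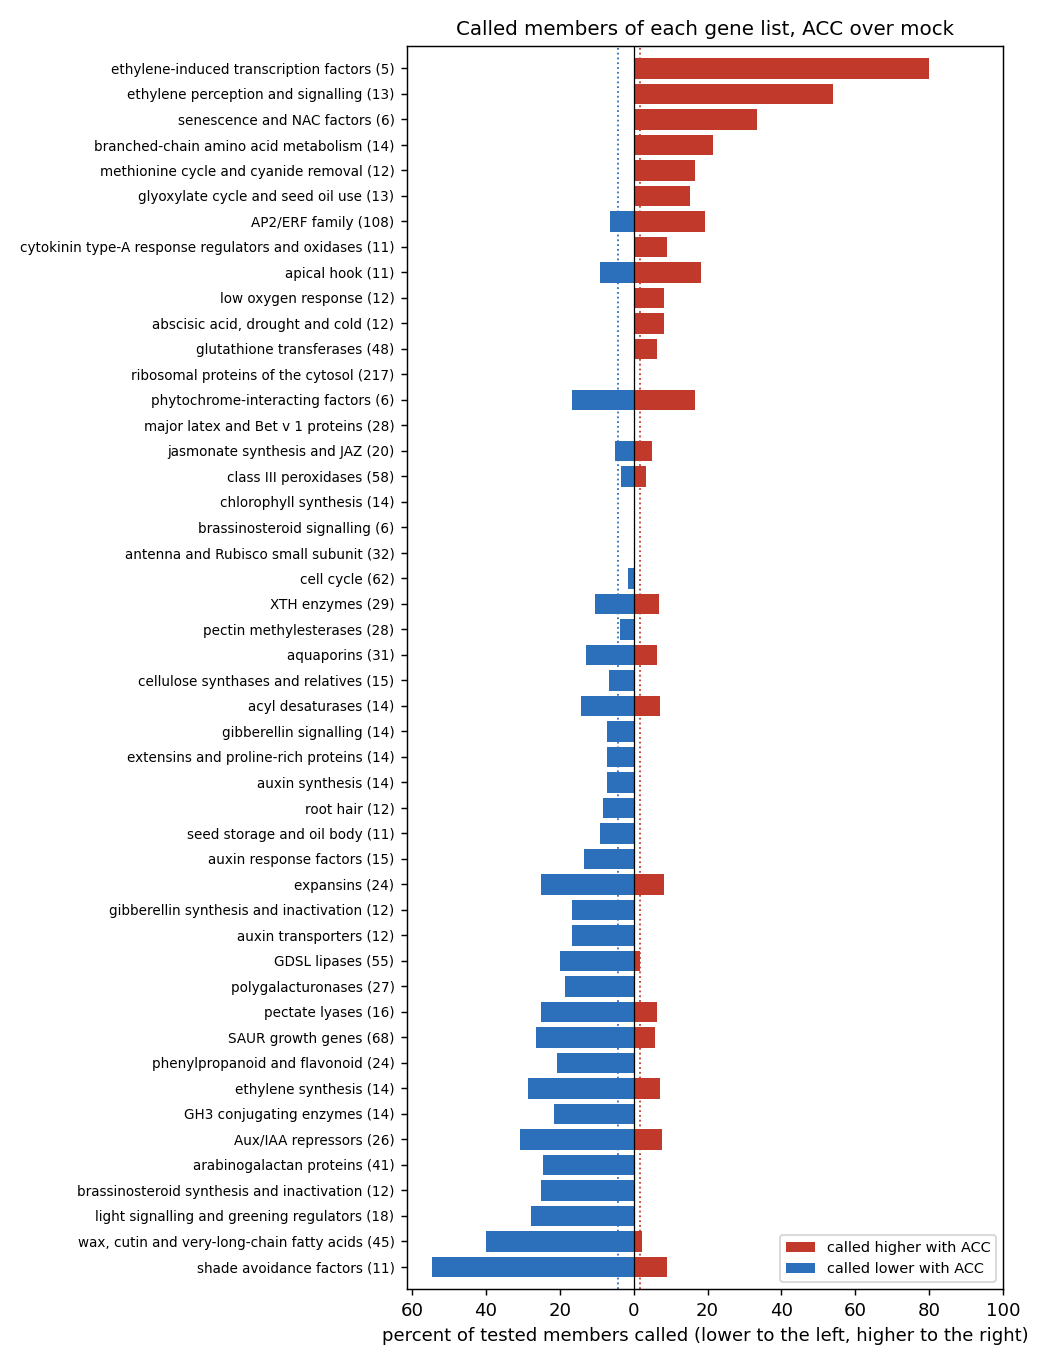
Share of tested members of each gene list (rows, number tested in brackets) called higher with ACC (red, to the right) or lower (blue, to the left), in percent; dotted lines mark the shares over all genes, 1.71% higher and 4.18% lower. Ethylene factors and signalling genes lie to the right, and cuticle, shade, auxin and arabinogalactan genes to the left.

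Seedlings given PFT-alpha shared the medium, age and time of treatment, and the same fit gave a direct test of ACC against PFT-alpha for the leading genes. EXPA12 averaged 59.1 ± 10.8 TPM with ACC and 5.76 ± 1.59 TPM with PFT-alpha (log2 difference 3.16, SE 0.19, adjusted p = 0.000854). CTR1 averaged 138 ± 23.9 TPM with ACC and 66.5 ± 13.4 TPM with PFT-alpha (log2 difference 1.04, adjusted p = 0.00144). IAA6 averaged 3.81 ± 1.2 TPM with ACC and 27.5 ± 9.2 TPM with PFT-alpha (log2 difference -2.53, adjusted p = 0.00144). These genes were chosen by their difference between ACC and mock, and the same ACC libraries enter both comparisons. Their difference from PFT-alpha is therefore no independent support for the call against mock. For EIN2 and ICL the difference from PFT-alpha did not pass the test, at 0.61 (SE 0.14, adjusted p = 0.0632) and 0.55 (SE 0.13, adjusted p = 0.0735) on the log2 scale.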

How the data were processed

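The authors deposited 1 table of TPM for 33033 features, named so per the file headers; 5 columns of group means were not used. The TAIR10 build and the tools DESeq2, RSEM, StringTie, HISAT, HISAT2 and fastp are named in the submitters' processing notes, with versions and roles not given in the sources used here. The library kit was strand-specific per the labels' protocols, but whether strand was used in counting is not stated. Depth was estimated from the steps that single fragments make in TPM times length (75.4 to 82.9% of low values in the 6 libraries lay within 0.15 of a step). Counts were not used here.

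The tested genes reached 1 TPM in 2 or more of the 9 wild-type libraries, and 12280 features were left out. log2(TPM + 1) was fitted in limma 3.58.1 (R 4.3.3, intensity trend) with group and replicate number over the 9 wild-type libraries, leaving 4 residual degrees of freedom; tests were two-sided with Benjamini-Hochberg adjustment over all tested genes at 0.05. The pseudocount understates changes of low genes. On simulated data, 93 of 100 genes changed 2-fold and 97 of 100 changed 4-fold were recovered, with 16 false calls among 20753 genes. The changed genes had a mean above 5 TPM, noise was drawn independently for each gene, and the replicate effects were built in. These figures therefore take the replicate block as true and do not test it.

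Whether the replicate numbers, which come from the labels, pair the libraries was checked from deviations from the group means: same-numbered ACC and mock libraries correlated at 0.28, 0.50 and 0.70 across genes, and the other same-numbered wild-type pairs at 0.34 to 0.78. ACC replicate 1 and mock replicate 2 gave 0.30, and ACC replicate 2 and mock replicate 1 gave 0.57, so the data set replicate 3 apart but do not tell pairs 1 and 2 from each other. No label says what a number shares.

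The members and the 54 gene lists were chosen with earlier results of these data known, and several families were matched by Pfam domain, KEGG group or locus; 16 entries that shared only a symbol with the gene meant were left out after their descriptions were read. Genes were named by rule. First came the 15 called genes of largest rise and the 15 of largest fall. These had at least 5 TPM in the higher group, at least 200 bases and the same direction in all 3 same-numbered pairs. Added to them were all members of the ethylene and hook lists, and the 5 largest differences in TPM each way. Every other list gave up to 3 called members a direction and its most abundant member. Family members beyond these are given as ranges or means. Sequences, positions and overlaps came from RefSeq TAIR10.1, in which 32548 identifiers were found. Alternatives were another pseudocount, filter, scaling, weighting, trend, set of libraries, no replicate block, and leaving out each library or replicate. Other tools were matplotlib 3.10.9, pandas 2.3.3, numpy 2.4.6 and Python 3.11.15. The result of 1 gene is not reported here.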

Additional observations from a re-analysis of the deposited data

Results flagged for a closer look

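Among libraries outside this comparison, the library labelled etr1-1 mock replicate 1, from an ethylene-insensitive receptor mutant given the solvent, was above every wild-type mock library for 326 of the 355 genes that ACC raised and below every one for 700 of the 867 that ACC lowered. It was singled out because a signal appears there in data that the comparison does not use. The other etr1-1 mock library did so for 56 and 112 of these genes, and the 2 etr1-1 libraries given PFT-alpha for 94 and 150 in replicate 1 and 67 and 134 in replicate 2. ABI1, for example, stood at 170.3 TPM in etr1-1 mock replicate 1 and 73.4 TPM in etr1-1 mock replicate 2. None of these libraries enters the main calls, and with all 13 libraries in the fit 710 genes were called. Both gene sets were picked with the wild-type mock values, and the same shares over all tested genes were not counted.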

How the results depend on the processing

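None of the 156 named genes that were called changed direction under any of 19 alternatives. Of the 62 that were not called, 22 had fold changes of both signs. Every called gene had the same sign in all same-numbered pairs. Leaving out a whole replicate or the replicate block could therefore not reverse it, and the constant direction is no independent support for the calls. Of the 156, 32 kept their call under all 19, and CER4 did under the 18 in which it was tested. Without the replicate block 193 genes were called (60 higher and 133 lower, and 57 of the 156 named genes), all among the 1222. With the 6 ACC and mock libraries alone 575 were called (169 and 406), and with all 13 libraries 710 (171 and 539, and 98 named genes). Library weights, estimated gene by gene because the default estimate did not converge, gave 2678 (978 and 1700). Leaving out single libraries or replicates gave 100 to 1226 genes called, 37 to 421 higher, 63 to 897 lower and 45 to 144 of the named genes; fits without 1 library assume that a smaller group varies like the others. Without mock replicate 1 669 were called, without mock replicate 3 696, and without replicate 1 of all groups 655. The cause was not tested. A pseudocount of 0.1, no filter, a filter of 5 TPM in 3 libraries, quantile or median-of-ratios scaling and no trend gave 941 to 1237, and the median of all genes moved by under 0.1 on the log2 scale.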

Other observations

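One gene outside the naming rule was picked after its values were seen. IAGLU, which encodes an enzyme that ties auxin to glucose, had 169, 149 and 161 TPM in ACC libraries, against 50.8, 39.9 and 43.3 TPM in mock libraries, with a log2 fold change of 1.82 (SE 0.09, adjusted p = 0.000239 in limma) and a rise in all 3 pairs. It stood on none of the gene lists, so the counts of auxin genes leave it out.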
